A study of Mus musculus with 58 samples.

Results

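Pou5f1, Nanog, Sox2, Klf4 and Cdx2 were followed through the H3K27ac tracks of full-grown mouse oocytes. The members are 5 fixed intervals of mm9, each holding 1 of these genes with its flanks, out of 87955 windows of 30 kb on the 19 autosomes and X. They span 30 kb each, except that of Klf4, which spans 26 kb. The intervals are chr17:35630001-35660000 for Pou5f1, chr6:122645001-122675000 for Nanog, chr3:34535001-34565000 for Sox2, chr4:55530001-55556000 for Klf4 and chr5:148100001-148130000 for Cdx2. Their limits are fixed positions, and the members were chosen with earlier results of these data known.

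The series holds 58 samples, of which the 4 H3K27ac libraries are used here. H3K27ac, the acetylation of histone H3 at lysine 27, was measured by STAR ChIP-seq, which immunoprecipitates chromatin from few cells. The control oocytes are labelled Setd2+/- and the knockout oocytes Setd2-/-, the latter from a maternal knockout of Setd2, and the controls are thus heterozygous rather than wild type. The labels give females 8 weeks old treated with the hormones PMSG and hCG, and the germinal vesicle stage. Setd2 encodes the methyltransferase that places H3K36me3. The driver of the deletion is not given in the sources used here. Each genotype had 2 replicates, which the authors pooled into 1 track, so no spread between replicates could be measured and no test was made anywhere below. Recovered reads numbered 30694806 for control and 29367645 for knockout. They lay in 11679676 bins of 100 bp in control and in fewer, 8718653, in knockout. Of these bins, 43.0% held an even number of reads in control and 52.9% in knockout. Why the tracks differed in this way was not tested.

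Pou5f1 (also called Oct4), Sox2 and Nanog encode transcription factors at the centre of the network that maintains pluripotency in the inner cell mass and in embryonic stem cells. Klf4 encodes a zinc finger factor that acts with them and is known for its use in reprogramming. Cdx2 encodes a homeodomain factor that specifies the trophectoderm, the outer layer of the blastocyst, where it opposes Pou5f1. Pou5f1 is known as a gene whose transcripts the growing oocyte already makes, and the trophectoderm and the inner cell mass arise only after fertilization. Transcripts of the members were not analysed here. H3K27ac is a mark of active promoters and enhancers.

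The promoters of the members differ in their content of CpG, the dinucleotide that marks CpG island promoters. RefSeq promoter sequences (build GRCm38.p6) were found by symbol for all 5. Pou5f1 and Nanog had 2 listed promoters each, of which only that at the start of the annotated gene was used. As the tracks are on mm9, the start sites were not placed on them, and the sequences stand beside the interval values as a description only. The 250 bases before the start are shown for the member with the most H3K27ac, the member with the least and a CpG-rich member between them, 5′ to 3′ on the gene's strand, with each CpG in capitals.
Pou5f1, GRCm38.p6 chr17:35505782-35506031, plus strand: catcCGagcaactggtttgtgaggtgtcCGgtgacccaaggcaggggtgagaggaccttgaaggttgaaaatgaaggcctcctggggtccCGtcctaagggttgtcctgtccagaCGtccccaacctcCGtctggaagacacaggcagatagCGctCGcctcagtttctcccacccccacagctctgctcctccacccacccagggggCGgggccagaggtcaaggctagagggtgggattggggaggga
Nanog, GRCm38.p6 chr6:122707239-122707488, plus strand: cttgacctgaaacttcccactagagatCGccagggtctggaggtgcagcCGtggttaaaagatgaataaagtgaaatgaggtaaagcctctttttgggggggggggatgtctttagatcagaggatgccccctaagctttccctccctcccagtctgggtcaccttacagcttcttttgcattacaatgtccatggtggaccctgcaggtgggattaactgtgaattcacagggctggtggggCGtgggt
Sox2, GRCm38.p6 chr3:34649745-34649994, plus strand: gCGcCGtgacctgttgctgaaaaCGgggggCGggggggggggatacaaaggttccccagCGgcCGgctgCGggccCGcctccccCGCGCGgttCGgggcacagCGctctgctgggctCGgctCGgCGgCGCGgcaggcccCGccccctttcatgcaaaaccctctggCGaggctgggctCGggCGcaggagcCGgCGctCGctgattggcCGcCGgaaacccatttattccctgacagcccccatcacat

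These 250 bases held 8 CpG at Pou5f1, 3 at Nanog and 27 at Sox2, against a median of 6 over the 32851 promoters of the table. Klf4 held 32, more than 95.4% of promoters, and Cdx2 held 13. The share of G and C was 74.0% at Klf4, 72.0% at Sox2, 62.0% at Pou5f1, 55.2% at Cdx2 and 52.0% at Nanog. A GC box (GGGCGG, either strand), which factors of the Sp and Klf families can bind, was present at Pou5f1, Sox2 and Klf4 and in 32.7% of all promoters. The octamer-type motif ATGCAAA, searched on both strands, is the kind of sequence that Pou5f1 protein binds. It was present at Nanog, Sox2 and Cdx2 and in 4.12% of all promoters. The matches are shown with 9 bases on each side and the motif in capitals.
Nanog: acagcttctTTTGCATtacaatgtc
Sox2: ccccctttcATGCAAAaccctctgg
Cdx2: acttttaaaATGCAAAtcgtgtttc
At Nanog the match reads on the opposite strand and lies 1 base from ACAATG, a sequence of the type bound by HMG box factors such as Sox2, which 10.7% of promoters hold on either strand.

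Over the whole interval, H3K27ac was highest at Pou5f1, followed by Cdx2, Sox2, Klf4 and Nanog, in both pools. Pou5f1 stood at 0.576 RPKM in control (530 reads) and 0.993 RPKM in knockout (875 reads), where RPKM is the number of reads per kb of bin, scaled to the size of the library. Cdx2 stood at 0.526 RPKM in control (484 reads) and 0.738 RPKM in knockout (650 reads). Both lay above the genome-wide mean of 0.379 RPKM in each pool. Sox2 also lay above it in both but closer, with 0.430 RPKM in control (396 reads) and 0.505 RPKM in knockout (445 reads). Klf4 had 0.284 RPKM (227 reads) and 0.345 RPKM (263 reads) in these pools, below the mean in both. Nanog had the least, 0.191 RPKM in control (176 reads) and 0.218 RPKM in knockout (192 reads).

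Counting error separated most neighbours in this order, but the unevenness along the intervals did not. By exact Poisson intervals at 95%, only Pou5f1 and Cdx2 in the control pool overlapped, at 0.528 to 0.627 and 0.480 to 0.575 RPKM. When the counting variance was multiplied by the variance over the mean of reads in 1 kb windows, which includes the real shape of the signal, every pair of neighbours in the order overlapped. With that wider error, Pou5f1 ranged from 0.478 to 0.693 RPKM in control and from 0.802 to 1.23 RPKM in knockout. Nanog ranged from 0.136 to 0.269 RPKM in control and from 0.147 to 0.323 RPKM in knockout, clear of Pou5f1, Sox2 and Cdx2 in both pools. Neither error covers differences between oocyte collections.

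**Figure D1:**
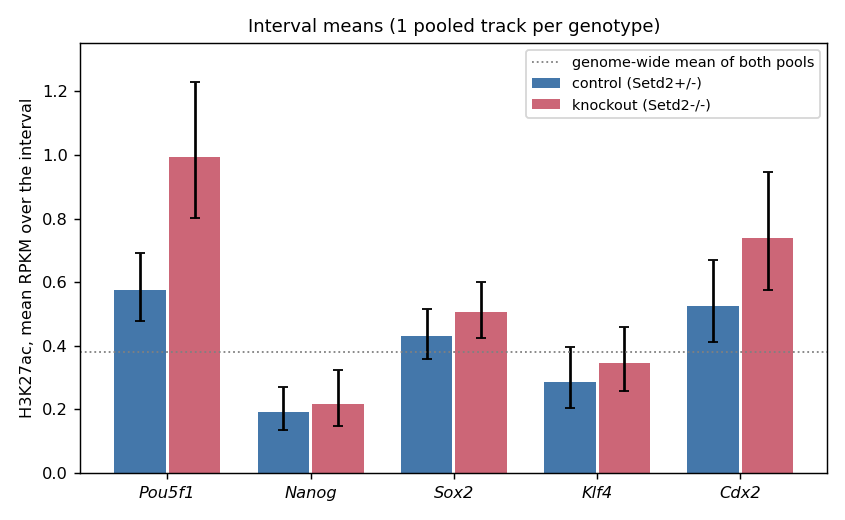
Mean H3K27ac over each interval in RPKM (y axis, from 0) for the control and knockout pools; bars are the authors' pooled values and error bars the wider 95% error from unevenness inside the track, not a spread between replicates. The dotted line is the genome-wide mean of 0.379 RPKM, which Pou5f1, Cdx2 and Sox2 exceed in both pools and Nanog and Klf4 in neither.

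Against autosomal windows of the same length that held a read, Pou5f1 was high without being extreme. It exceeded 74.9% of them in control and 93.5% in knockout. Cdx2 exceeded 68.9% in control and 84.3% in knockout, and Sox2 56.9% and 70.3%. Klf4 went from above 39.9% to above 56.1% of windows, and Nanog from above 28.6% to above 38.7%. All 5 ranked higher in the knockout pool. The windows they were ranked among had medians of 0.375 RPKM for control and 0.296 RPKM for knockout at nearly equal means. A value between these medians thus ranks below the middle in control and above it in knockout without any change. The share of all windows that ranked higher in knockout was not computed.

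Nanog's low mean coincided with many bins without reads. In its interval 57.0% of bins of 100 bp were empty in both pools, against 42.4% over the autosomes. The share was 41.2% at Klf4, 18.7% at Cdx2, 18.3% at Pou5f1 and 17.7% at Sox2. Over the bins with a read in either pool, Nanog had 0.445 and 0.507 RPKM and was still lowest in both pools. Counted the same way, Pou5f1 had 0.705 and 1.22 RPKM. How many of the empty bins cannot be mapped uniquely was not tested.

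Every member had a higher mean in the knockout pool, but the size of the difference varied and none reached 2-fold. At Pou5f1 the ratio of knockout over control was 1.73 (95% Clopper-Pearson counting interval 1.55 to 1.93), and the wider error of 1.30 to 2.29 did not include 1. At Cdx2 the ratio was 1.4 (1.25 to 1.58), with a wider error of 0.994 to 1.98. Klf4 had 1.21 (1.01 to 1.45), Sox2 1.17 (1.02 to 1.35) and Nanog 1.14 (0.925 to 1.41). The wider errors of Klf4, Sox2 and Nanog ran from 0.783 to 1.87, from 0.915 to 1.51 and from 0.678 to 1.92. Only at Pou5f1 did the wider error thus leave out 1. That error takes the 1 kb windows of an interval as independent and does not cover unevenness over longer stretches of the tracks.

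Over the autosomes, 53.5% of windows of 30 kb with a read were higher in knockout, and 54.0% of those that reached the genome-wide mean. As the members were chosen with earlier results known, their shared direction was given no test. On the scale of log2(RPKM + 0.1), which understates differences of low windows, the median over the members was 0.21, beside 0.06 over those windows. Pou5f1 had a log2 ratio of 0.69 and exceeded 85.4% of autosomal windows of its length, and Cdx2 had 0.42 and exceeded 72.0%. Klf4, Sox2 and Nanog had 0.21, 0.19 and 0.13, near the middle of the windows, above 59.5%, 58.3% and 54.3% of them. Pou5f1, Sox2 and Cdx2 passed a filter at the genome-wide mean of both pools, and Nanog and Klf4 did not. Among autosomal windows that also passed it, Pou5f1 exceeded 81.9%, Cdx2 68.9% and Sox2 56.5% in log2 ratio. Of the 3 members that passed, 0 were called at 2-fold, where 7.23% of such windows on autosomes and X were higher and 10.2% lower. Without the filter 0 of 5 were called, where 5.2% of windows were higher and 9.97% lower. At 1.5-fold only Pou5f1 was called, where 21.8% of windows were higher and 22.4% lower.

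**Figure D2:**
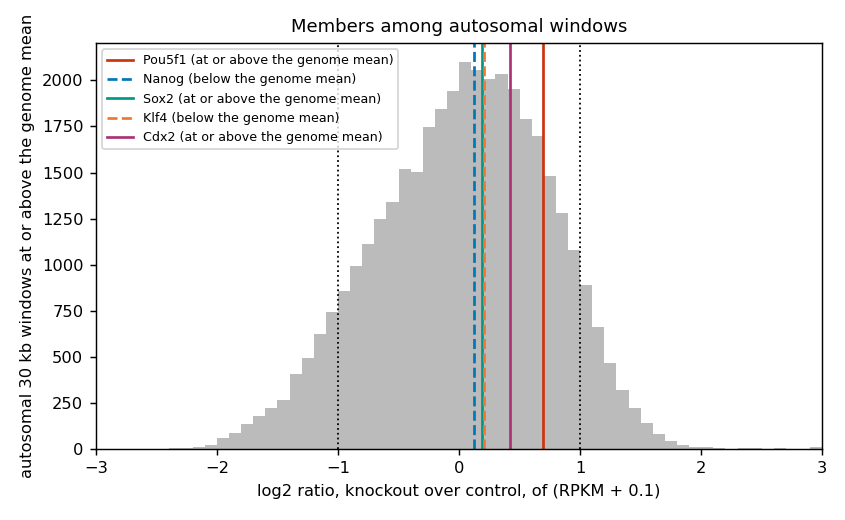
Histogram of log2 ratios (knockout over control, RPKM + 0.1, x axis) of autosomal 30 kb windows that reach the genome-wide mean, with values past either end counted in the end bars; the y axis counts windows. Vertical lines mark the members, dashed where the member is itself below the mean, and dotted black lines mark 2-fold: Pou5f1 at 0.69 lies farthest right and all 5 lie inside 2-fold.

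Some of the members' chromosomes also differed between pools, and the ratio of each member was above that of its chromosome. Chromosome 17 had a ratio of 1.15, and Pou5f1 stood at 1.5 times that. Chromosome 3 was lower in knockout, with a ratio of 0.901, so that Sox2 stood at 1.30 times its chromosome. Cdx2 stood at 1.27 times chromosome 5 (ratio 1.11), Klf4 at 1.17 times chromosome 4 (1.04) and Nanog at 1.14 times chromosome 6 (0.999). The wider errors of Cdx2, Klf4 and Nanog included the ratio of their chromosome. That of Sox2, from 0.915, left it out only narrowly.

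At Pou5f1, the signal filled most of the interval and ended near its higher coordinates. The 5 kb windows from 35630001 to 35645000 had 0.802, 0.834 and 0.723 RPKM in control and 1.13, 1.42 and 1.23 RPKM in knockout. The next windows, to 35655000, had 0.456 and 0.469 RPKM in control but 1.05 and 0.947 RPKM in knockout, ratios of 2.30 (1.72 to 3.10) and 2.02 (1.51 to 2.72). The last window had 0.169 and 0.191 RPKM. The ranges given for ratios of 5 kb windows, here and below, cover counting alone. The wider error was not computed for them, so they do not settle whether a window differed beyond unevenness along the interval. The window from 35645001 to 35650000 had a log2 ratio of 1.05 and was the only 1 of the members' 15 windows above the genome-wide mean to be called higher at 2-fold, and 0 were called lower. Over the genome, 11.6% of the 5 kb windows that reached the mean were higher and 15.2% lower. With windows shifted by 2.5 kb, 0 of the members' windows were called. At 1.5-fold, 6 of the 15 were higher, beside 25.4% over the genome, and 0 were lower, beside 26.5%.

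In windows of 1 kb, knockout exceeded control in 24 of 30 at Pou5f1. The share of all 1 kb windows higher in knockout was not computed, so such counts, here and below, have no background beside them. The highest control window of Pou5f1, at 35632001 to 35633000, had 1.14 RPKM, and the knockout pool had 2.18 RPKM there. Of the knockout reads of the interval, 47 lay in a single bin of that window, at 35632201 to 35632300, 5.37% of the total. The highest knockout window was another, at 35639001 to 35640000, with 2.35 RPKM against 0.619 RPKM in control. The lowest windows had 0.130 RPKM in control and 0.102 RPKM in knockout. When no bin was allowed more than 10 reads, the log2 ratio of Pou5f1 was 0.57, just under 1.5-fold, and the call at 1.5-fold was lost under 4 of 10 alternatives in all.

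Cdx2 had its signal on the side of lower coordinates, with a peak in the same place in both pools. The 5 kb window from 148105001 to 148110000 was its highest, with 0.991 RPKM in control and 1.56 RPKM in knockout. Its highest 1 kb windows adjoined, at 148106001 to 148107000 with 1.5 RPKM in control and at 148107001 to 148108000 with 1.91 RPKM in knockout. The next 5 kb window went the other way, from 0.704 RPKM in control to 0.484 RPKM in knockout, a ratio of 0.687 (0.502 to 0.936). The higher mean of the whole interval thus lay on both sides of this window. In 1 kb windows of the interval, the variance over the mean of reads was 7.29 in control and 10.3 in knockout. Whether the window was lower beyond such unevenness was not tested. The last window, from 148125001, had 31 control and 63 knockout reads (0.202 and 0.429 RPKM), a ratio of 2.12 (1.36 to 3.38), but lay below the filter. The lowest 1 kb windows had 0.130 RPKM in control and 0.102 RPKM in knockout. In 21 of 30 windows knockout exceeded control.

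At Sox2, no 5 kb window stood far above the rest, and the 1 kb profile did not correlate between the pools. Its highest 1 kb windows held 28 control and 27 knockout reads, so counting error in single windows was large. The 6 windows of 5 kb lay between 0.267 and 0.606 RPKM in control and between 0.293 and 0.674 RPKM in knockout. The window from 34555001 to 34560000 had the lowest log2 ratio of all the members' windows, -0.55, with 73 reads in control and 43 in knockout. In the window from 34545001 to 34550000 there were 41 control and 67 knockout reads, and the ratio was 1.71 (1.14 to 2.58). It held the lowest control window of 1 kb, at 34549001 to 34550000, with no control read and 0.886 RPKM in knockout. A count of 0 in control allows up to 3 reads there (one-sided limit at 95%), against the 26 of knockout. That limit covers counting alone, and the window was picked as the lowest of 30 in control, so the contrast tests nothing. The highest 1 kb windows were at 34537001 to 34538000 in control, with 0.912 RPKM, and at 34541001 to 34542000 in knockout, with 0.920 RPKM. The lowest knockout window had 0.0341 RPKM. Knockout exceeded control in 16 of 30 windows of 1 kb and was below it in 14.

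Klf4 was poor over most of its interval and had its highest signal at the same place in both pools. The 1 kb window from 55552001 to 55553000 was highest in each, with 1.01 RPKM in control and 1.02 RPKM in knockout. The 5 kb window around it, from 55550001, had 0.567 RPKM and 0.552 RPKM in these pools, and was its only window above the filter. The window from 55540001 to 55545000 had 26 reads in control and 57 in knockout, a ratio of 2.29 (1.42 to 3.80), at 0.169 and 0.388 RPKM. The first window, from 55530001, had 10 and 23 reads, with 60.0% of the control reads in 1 bin. The last 1 kb of this interval was left out of the 5 kb windows. In windows of 1 kb, knockout exceeded control in 16 of 26 and was below it in 9. The lowest 1 kb windows adjoined: 55533001 to 55534000 had no control read and 0.136 RPKM in knockout, and 55534001 to 55535000 had no read in either pool.

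Nanog had little H3K27ac anywhere in its interval and most of that near the higher coordinates. Its 5 kb windows ran from 0.0521 to 0.319 RPKM in control and from 0.0613 to 0.429 RPKM in knockout, so that 0 of 6 passed the filter. The highest control window of 1 kb, at 122669001 to 122670000, had 0.684 RPKM and 0.136 RPKM in knockout. The highest knockout window, at 122674001 to 122675000, had 1.06 RPKM and 0.619 RPKM in control, and is the last of the interval. Of 30 windows of 1 kb, 7 were empty in control, 6 in knockout and 4 in both. Knockout exceeded control in 15 windows and was below it in 11.

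**Figure D3:**
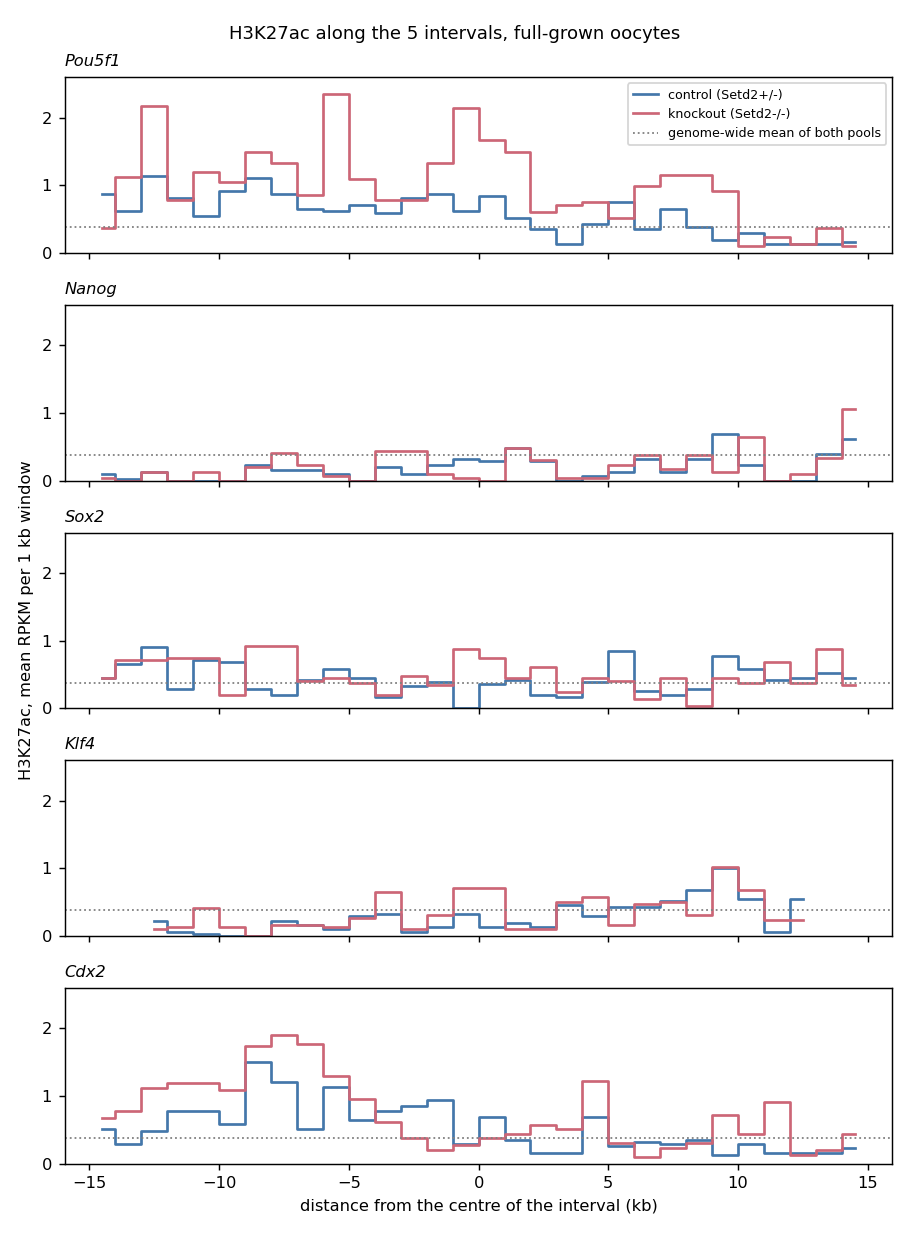
H3K27ac in RPKM per 1 kb window (y axis, same scale in each panel) against the distance from the centre of each interval in kb, with higher coordinates to the right, for the control and knockout pools. Pou5f1 reaches 2.35 RPKM and Cdx2 1.91 RPKM in knockout, whereas Nanog, Sox2 and Klf4 stay at or below 1.06 RPKM in both pools.

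Windows rich in H3K27ac, with at least 3 times the genome-wide mean of the same track, were found at Pou5f1 and Cdx2. Of the members' 29 windows of 5 kb, 0 were rich in control, where 1.93% of all windows with a read were, and 3 were rich in knockout, where 6.25% were. Of these 3, 2 lay at Pou5f1 and 1 at Cdx2. At 2 times the mean, 3 windows were rich in control and 7 in knockout, again at Pou5f1 and Cdx2, against 14.7% and 16.2% of all windows. In 1 kb windows at 3 times the mean, Pou5f1 had 1 in control and 11 in knockout, and Cdx2 had 3 and 7, each of 30 windows. Over all 1 kb windows with a read, 5.13% were rich in control and 8.43% in knockout. Nanog, Sox2 and Klf4 had 0 in either pool at 1 kb and at 5 kb.

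The profiles across 1 kb windows correlated between the pools at 4 members and not at Sox2. Pearson's r over 30 windows was 0.57 at Pou5f1, 0.59 at Nanog and 0.62 at Cdx2, and over 26 windows it was 0.63 at Klf4. At Sox2 it was -0.01. Spearman's rho was 0.56, 0.61, 0.47, 0.59 and -0.01 for Pou5f1, Nanog, Cdx2, Klf4 and Sox2. Among the 37726 autosomal windows of 30 kb that reached the genome-wide mean, the median r was 0.40, with quartiles of 0.23 and 0.55. Sox2 exceeded 5.74% of these windows and the other members between 77.5% and 85.9%. Nanog and Klf4 did not themselves reach that mean, and Klf4 has 26 windows against 30, so their ranks are not like for like. Windows empty in both pools, 4 at Nanog and 1 at Klf4, also enter their r. Windows within a locus share their library and are not replicates, so these values describe the tracks and carry no p.

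The members differed in how they stood against their surroundings. In the 100 kb on either side, Pou5f1 stood above the mean in both pools, 1.95 times in control and 2.23 times in knockout. Its sides were unequal: the 100 kb at lower coordinates had 0.0955 RPKM in control and 0.169 RPKM in knockout, with 73.5% of bins empty in both pools, and the 100 kb at higher coordinates had 0.496 and 0.720 RPKM. Nanog stood below its surroundings, at 0.501 times in control and 0.384 times in knockout, and so did Sox2, at 0.699 and 0.682 times. Cdx2 stood at 1.20 times in control and 0.940 times in knockout, as its surroundings went from 0.437 to 0.785 RPKM, a ratio of 1.80 that exceeds that of the interval. Klf4 stood at 0.807 times in control and 1.53 times in knockout, as its surroundings had 0.352 RPKM in control and 0.225 RPKM in knockout. Against 1 Mb on either side, Nanog in control (1.04 times), Sox2 in knockout (1.05 times), Cdx2 in knockout (1.23 times) and Klf4 in control (1.07 times) stood above the surroundings instead, whereas Pou5f1 stood above them at both distances in both pools.

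The flanks of Klf4 and Pou5f1 show opposite cases. On the side of higher coordinates, Klf4 had 0.514 RPKM in control and 0.272 RPKM in knockout over 100 kb. The surroundings of Pou5f1 had a ratio of 1.5 over 100 kb and of 1.80 over 1 Mb on either side, so that the ratio of 1.73 at Pou5f1 was close to that of the region around it. For Cdx2, the ratio over 1 Mb on either side was 1.69 against 1.4 in the interval. For Nanog it was 1.23, for Sox2 0.919 and for Klf4 0.898, each beside an interval ratio between 1.14 and 1.21. In RefSeq's GRCm38.p6 annotation the nearest protein-coding genes are H2-Q10 and Tcf19 for Pou5f1, Dppa3 and Slc2a3 for Nanog, Dnajc19 and Atp11b for Sox2, Rad23b and Actl7b for Klf4, and Pdx1 and Urad for Cdx2. Which reads of an interval belong to a neighbour was not analysed here.

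**Figure D4:**
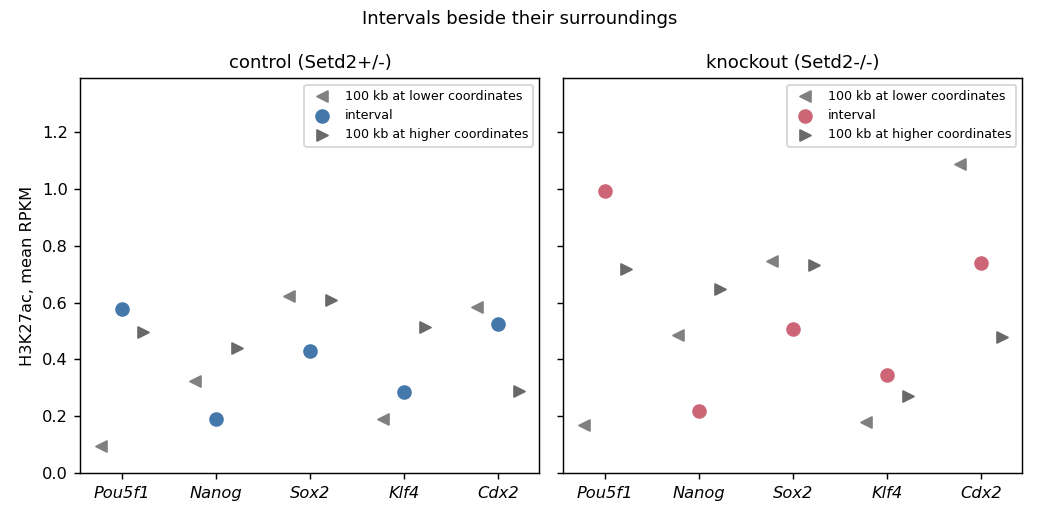
Mean H3K27ac in RPKM (y axis, from 0) of each interval (circles) and of the 100 kb at lower and higher coordinates (triangles), with control on the left and knockout on the right. Pou5f1 lies above both sides in each pool, Nanog and Sox2 lie below both sides in each pool, and Klf4 lies between its sides in control and above both in knockout.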

How the data were processed

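Full-grown oocytes of mice were profiled for H3K27ac by STAR ChIP-seq. Each deposited track pools both replicates of a genotype, per the labels, and gives the authors' RPKM per 100 bp bin, omitting bins without reads. The unit was inferred from the values. The submitters' processing notes name Bowtie2 2.2.2 and the build mm9. How duplicates, repeats, read extension and input were handled is not given in the sources used here. Each of these steps could alter values, at repeats and elsewhere, and the counting intervals take every recovered read as independent.

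Values were whole multiples of the RPKM of 1 read (100% of bins in both pools, tolerance 0.005 RPKM), which gave reads per bin. Interval means, ratios of knockout over control, and log2 ratios of RPKM + 0.1 were computed, with exact Poisson and Clopper-Pearson intervals for counting error at 95%. Wider intervals multiply the counting variance by the variance over the mean of reads in 1 kb windows. The plan assumed no test, because pooled tracks leave none. The call rule was tested on simulated windows with known folds and a set noise, which does not stand for the spread between these libraries. A 2-fold rule leaves smaller ratios, such as those of all 5 members, uncalled. All 5 members are named by rule; within an interval the highest and lowest 1 kb windows and the 5 kb windows past 2-fold are given. Other genes of the planned lists, cell type markers included, would require gene positions on mm9 and were not analysed here. Members and lists were chosen with earlier results of these data known. Alternatives were other scalings, pseudocounts, interval limits, window sizes and thresholds. The scripts ran under Python 3.11.15 with SciPy 1.17.1, NumPy 2.4.6, pandas 2.3.3 and matplotlib 3.10.9.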

Additional observations from a re-analysis of the deposited data

How the results depend on the processing

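No paired analysis was possible because the replicates of a genotype share 1 pooled track, and leaving out a replicate was not run for the same reason. Each member's log2 ratio was computed under 10 alternatives. Those of Pou5f1, Sox2 and Cdx2 stayed above 0 in all 10, from 0.47 to 0.81, 0.05 to 0.30 and 0.27 to 0.56. Nanog, 0.13 as reported, was -0.03 with the interval narrowed by 5 kb on either side, -0.06 by the median over 1 kb windows and 0.51 when widened by 10 kb on either side. Klf4 was -0.017 when widened, which takes in flanks that differ. Pou5f1, 0.69 as reported, was 0.47 with a pseudocount of 0.5, which shrinks ratios by construction, and 0.55 by the median over 1 kb windows. The scalings shifted all log2 ratios by -0.05, -0.09 and 0.13 before the pseudocount and turned no member. The alternative that kept only bins with a read in either pool was chosen after seeing the data. Against 1 Mb instead of 100 kb on either side, the interval over its surroundings was 1.72 for Pou5f1 in knockout, 1.04 and 0.968 for Nanog in control and knockout, 0.825 and 1.05 for Sox2, 1.49 and 1.23 for Cdx2 and 1.07 for Klf4 in control; why was not tested. The 30 kb windows called, 2898 higher and 4099 lower, were 8761 and 9001 at 1.5-fold, 4427 and 8482 without the filter and 10971 and 14799 in 10 kb windows, as more windows pass. Member windows of 5 kb called higher, 1 as reported, were 6 at 1.5-fold (25.4% of all 5 kb windows that reached the mean) and 0 when shifted by 2.5 kb. Member windows rich at 2 times the mean were 3 in control and 7 in knockout. With 176 to 875 reads per interval and pool, only the ratio of Pou5f1 had a wider error that did not include 1, and that error does not cover unevenness over longer stretches.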

Other observations

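The richest 5 kb window within 100 kb of a member, found for each of 5 members in each pool after the values were seen, lay outside the interval in 8 of 10 cases. The search took in 100 kb on either side of an interval of 30 kb (26 kb at Klf4). Most windows searched thus lay outside, and the count by itself shows no shift of signal away from the intervals. Near Nanog the richest window was the same in both pools, chr6:122575001-122580000, 65 kb before the interval, with 0.991 RPKM in control and 1.79 RPKM in knockout. Near Sox2 it was 5 kb before the interval in control, with 1.13 RPKM and 1.08 RPKM in knockout, and 40 kb after it in knockout, at chr3:34605001-34610000, with 1.85 RPKM and 0.554 RPKM in control. Near Cdx2, the richest control window lay inside the interval, at chr5:148105001-148110000, with 0.991 RPKM in control and 1.56 RPKM in knockout. Its richest knockout window was chr5:148080001-148085000, 15 kb before the interval, with 2.24 RPKM and 0.886 RPKM in control. Near Klf4 it was 29 kb after the interval in control, at chr4:55585001-55590000, with 1.06 RPKM and 0.586 RPKM in knockout, and 14 kb after it in knockout, at chr4:55570001-55575000, with 0.661 RPKM and 0.613 RPKM in control. Near Pou5f1, it lay inside the interval in control and 75 kb after it in knockout, where chr17:35735001-35740000 had 1.49 RPKM and 0.769 RPKM in control.

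Among the 66 adjoining windows of its own length, 33 on each side, Pou5f1 was exceeded by 4 in control and 12 in knockout. Cdx2 was exceeded by 15 and 23, Sox2 by 40 and 25, Klf4 by 24 and 16, and Nanog by 24 and 21.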
